A study of Homo sapiens with 18 samples.

Results

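After 48 h of all-trans retinoic acid (ATRA), NB4 cells called TG2 knockout were set against wild-type NB4 cells. The members are the 6 arrays whose titles name these groups, 3 of each genotype, out of 18 arrays in the series. NB4, a long-established human cell line, was derived from acute promyelocytic leukemia. Each array measured RNA from 1 biological replicate on an Affymetrix whole-transcript platform with 33297 probe sets. The groups used here are TG2 knockout cells given 1 µM ATRA for 48 h and wild-type cells given 1 µM ATRA for 48 h. The same 2 genotypes at 72 h of 1 µM ATRA and untreated, with 3 arrays in each of these 4 groups, serve only to place the 48 h values. How the gene was altered, and whether the altered line is 1 clone or a pool, is not given in the sources used here. The titles say knockout, while the sample codes of the same arrays carry the letters KD.

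TG2 is transglutaminase 2, encoded by TGM2. It is a calcium-dependent enzyme that joins glutamine and lysine side chains of proteins, and it also binds GTP and takes part in cell adhesion. ATRA binds retinoic acid receptors and drives NB4 cells, which carry the PML-RARA fusion protein, to stop dividing and to differentiate along the neutrophil path. TGM2 is a classical retinoid target in these cells. Neutrophil maturation brings granule proteins, the NADPH oxidase, chemoattractant receptors, Fc and complement receptors and chemokines.

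Values are the deposited log2 signals, and a difference is knockout minus wild-type on that scale. Levels of different genes are not compared, because each probe set has its own response. The 6 arrays correlated with r between 0.966 and 0.979 across probe sets within a genotype and between 0.966 and 0.982 across genotypes, so the genotypes did not separate on the whole profile. As a measure of how far each array had responded, its deviation from the untreated mean of its own genotype was taken. This was regressed on the wild-type 72 h response over 5577 probe sets that differed at least 2-fold there. The probe sets were chosen by the wild-type change, and wild-type arrays share the untreated mean used in that response. The slopes are therefore not strictly alike between the genotypes. The slopes were 0.754, 0.879 and 0.781 in knockout replicates 1, 2 and 3, against 0.75, 0.913 and 0.993 in wild-type replicates 1, 2 and 3. Wild-type replicate 1 thus had the smallest slope of the 6, just below the knockout arrays, and wild-type replicate 3 the largest. Wild-type replicate 3 was also high in inflammatory genes. Its signal for CXCL8, which encodes the neutrophil attractant interleukin 8, was 10.07, against 7.12 and 8.38 in wild-type replicates 1 and 2. Several list results are therefore also given without it.

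Neutrophil-line markers were read in both genotypes. All 8 listed (MPO, ELANE, PRTN3, CTSG, AZU1, ITGAM, CSF3R and CYBB) lay above the median of all probe sets. So did 5 of 9 monocyte and macrophage, 2 of 7 eosinophil, basophil and mast cell, 3 of 6 erythroid and megakaryocyte and 2 of 6 lymphocyte markers. A place above this median therefore does not by itself single out a cell type. The mean of the 8 neutrophil-line markers ranged from 9.83 to 10.06 in knockout arrays and from 9.94 to 10.13 in wild-type arrays. MPO, myeloperoxidase, averaged 12.25 ± 0.14 in knockout and 12.24 ± 0.14 in wild-type cells (SD, n = 3 each).

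The targeted gene was read first. TGM2 had signals of 11.01, 10.56 and 11.29 in TG2 knockout cells at 48 h, against 12.34, 12.06 and 12.40 in wild-type cells. Every knockout array lay below every wild-type array. The difference was −1.31 ± 0.20 (SE, n = 3 each), which puts the knockout signal at 40.2% of wild-type, with a 95% interval of 29.6% to 54.7%. The unadjusted p was 2.87e-05, the smallest of any probe set with a single gene. Adjusted over all 33297 probe sets by the Benjamini-Hochberg method in limma it was 0.419, so TGM2 did not pass the threshold of 0.05. An exact permutation test over the 6 arrays gave a two-sided p of 0.1, the smallest that 3 against 3 allows. With the replicate number as a block the adjusted p in limma was 0.0183, and with all 18 arrays in 1 fit it was 0.0345. TGM2 passed the threshold in only these 2 of 19 alternatives. The replicate numbers are not known to pair the arrays. The fit of all 18 arrays assumes 1 spread for groups whose median SDs differ.

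TGM2 signal therefore read lower, and was not missing, in the cells labelled knockout. Untreated cells averaged 6.39 ± 0.11 in knockout and 6.43 ± 0.17 in wild-type (SD, n = 3 each), with no difference beyond the spread. Over these untreated levels the 48 h mean was at least 23.6-fold higher in knockout and at least 57.3-fold higher in wild-type cells, as lower bounds, since the untreated signal was near the array median and its background is not given. At 48 h TGM2 stood at the 96.9th percentile of all probe sets in knockout arrays and at the 99.5th in wild-type arrays. The gene lies on chromosome 20 of GRCh38.p14, at chr20:38127385-38168475. It has 1 probe set of its own, whose position relative to the altered site is not given, so the signal does not measure how much active enzyme was left. In bulk RNA, fewer cells with a high level and less RNA in every cell cannot be told apart.

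No probe set passed an adjusted p of 0.05 between the genotypes at 48 h, which is 0% of 33297. At an unadjusted p under 0.05, 960 probe sets (2.88%) differed, 456 higher (1.37%) and 504 lower (1.51%) in knockout cells. The 2 groups of arrays did not overlap at 2251 probe sets (6.76%). Among 18417 genes that have their own probe set, the knockout arrays all lay above the wild-type arrays for 707 (3.84%) and all below for 608 (3.3%). Counting both directions, 1315 genes (7.14%) were apart. These shares are the background for every count that follows. The median difference over these genes was 0.0033, and 50.5% of them read above 0. Genes below are therefore described by their values, and none is called changed.

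Genes were ranked by their difference among those with an unadjusted p under 0.05 whose arrays did not overlap. The lowest after TGM2 included genes of innate immunity and adhesion. NLRC4, a sensor of bacterial proteins that assembles an inflammasome, had signals of 6.44, 5.88 and 6.96 in knockout cells, against 7.57, 7.42 and 7.91 in wild-type cells. Its difference was −1.21 ± 0.39 (adjusted p = 0.999 in limma). MMP8, the neutrophil collagenase stored in specific granules, had 3.76, 3.56 and 4.40 in knockout cells, against 4.53, 5.51 and 5.16 in wild-type cells. Both sets of MMP8 values were low on the array's scale, and the difference was −1.16 ± 0.33.

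CX3CR1, the receptor of fractalkine, had 5.55, 6.04 and 6.24 in knockout cells, against 6.42, 6.76 and 7.99 in wild-type cells, and the difference was −1.11 ± 0.42. The highest of these was wild-type replicate 3. SEMA6B, a transmembrane semaphorin, had 8.08, 8.17 and 8.39 in knockout cells, against 8.95, 9.20 and 9.55 in wild-type cells. All 3 of its knockout arrays lay within 0.31 of each other and clear of the wild-type arrays, with a difference of −1.02 ± 0.31. ITGA6, the alpha chain of a laminin-binding integrin, had 7.77, 7.13 and 8.02 in knockout cells, against 8.78, 8.16 and 8.97 in wild-type cells, which puts the knockout at −0.997 ± 0.30. The untreated ITGA6 arrays were apart too, with a difference of −0.25.

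CCL24, eotaxin-2, is a chemokine that attracts eosinophils through the receptor CCR3. Its signals were 9.64, 9.52 and 9.04 in knockout cells, against 10.62, 10.34 and 10.25 in wild-type cells. The groups were apart by 0.61 at their nearest arrays, and the difference was −1.003 ± 0.25 (adjusted p = 0.999 in limma). UGT2B10, a glucuronosyltransferase with close paralogs, had 3.49, 2.5 and 3.69 in knockout cells, against 3.89, 4.11 and 4.72 in wild-type cells. Those signals are near the low end of the arrays, and at 72 h the groups lay apart the other way, by 0.76.

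At the other end of this ranking, IGF2BP2 had the highest difference. It encodes an RNA-binding protein that binds and stabilises messages, IGF2 among them. Signals were 7.28, 7.97 and 7.71 in knockout cells, against 6.59, 6.44 and 6.55 in wild-type cells. The wild-type arrays lay close together and the knockout arrays all above them, with a difference of 1.13 ± 0.20 (adjusted p = 0.659 in limma), or 2.18-fold. CA2, carbonic anhydrase 2, which interconverts carbon dioxide and bicarbonate, had 6.91, 6.98 and 6.73 in knockout cells, against 5.77, 6.03 and 6.20 in wild-type cells. The CA2 difference was 0.87 ± 0.16 (adjusted p = 0.745 in limma).

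GJA1, the gap junction protein connexin 43, had 6.74, 6.40 and 6.10 in knockout cells, against 5.60, 5.78 and 4.98 in wild-type cells. ANXA1, a phospholipid-binding protein that limits inflammation through formyl peptide receptors, had 9.55, 9.52 and 9.21 in knockout cells, against 9.16, 8.13 and 8.56 in wild-type cells. For ANXA1 the nearest arrays of the 2 groups were only 0.05 apart, while its mean difference was 0.81 ± 0.26. MARCHF11, a membrane-bound ubiquitin ligase, differed by 1.01 ± 0.39, CXCR6, the receptor of CXCL16, by 0.78 ± 0.23 and CCDC112, a coiled-coil protein, by 0.78 ± 0.29. ANKRD20A8P, an ankyrin repeat pseudogene with similar copies, differed by 0.84 ± 0.27. These last 4 had low signals, with means between 3.77 and 5.72 in both groups. Only GJA1 and ANXA1 of these 6 were also apart in the same direction at 72 h. Both were apart in that direction in untreated cells too, ANXA1 by 0.21 (adjusted p = 0.0464 in limma).

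**Figure D1:**
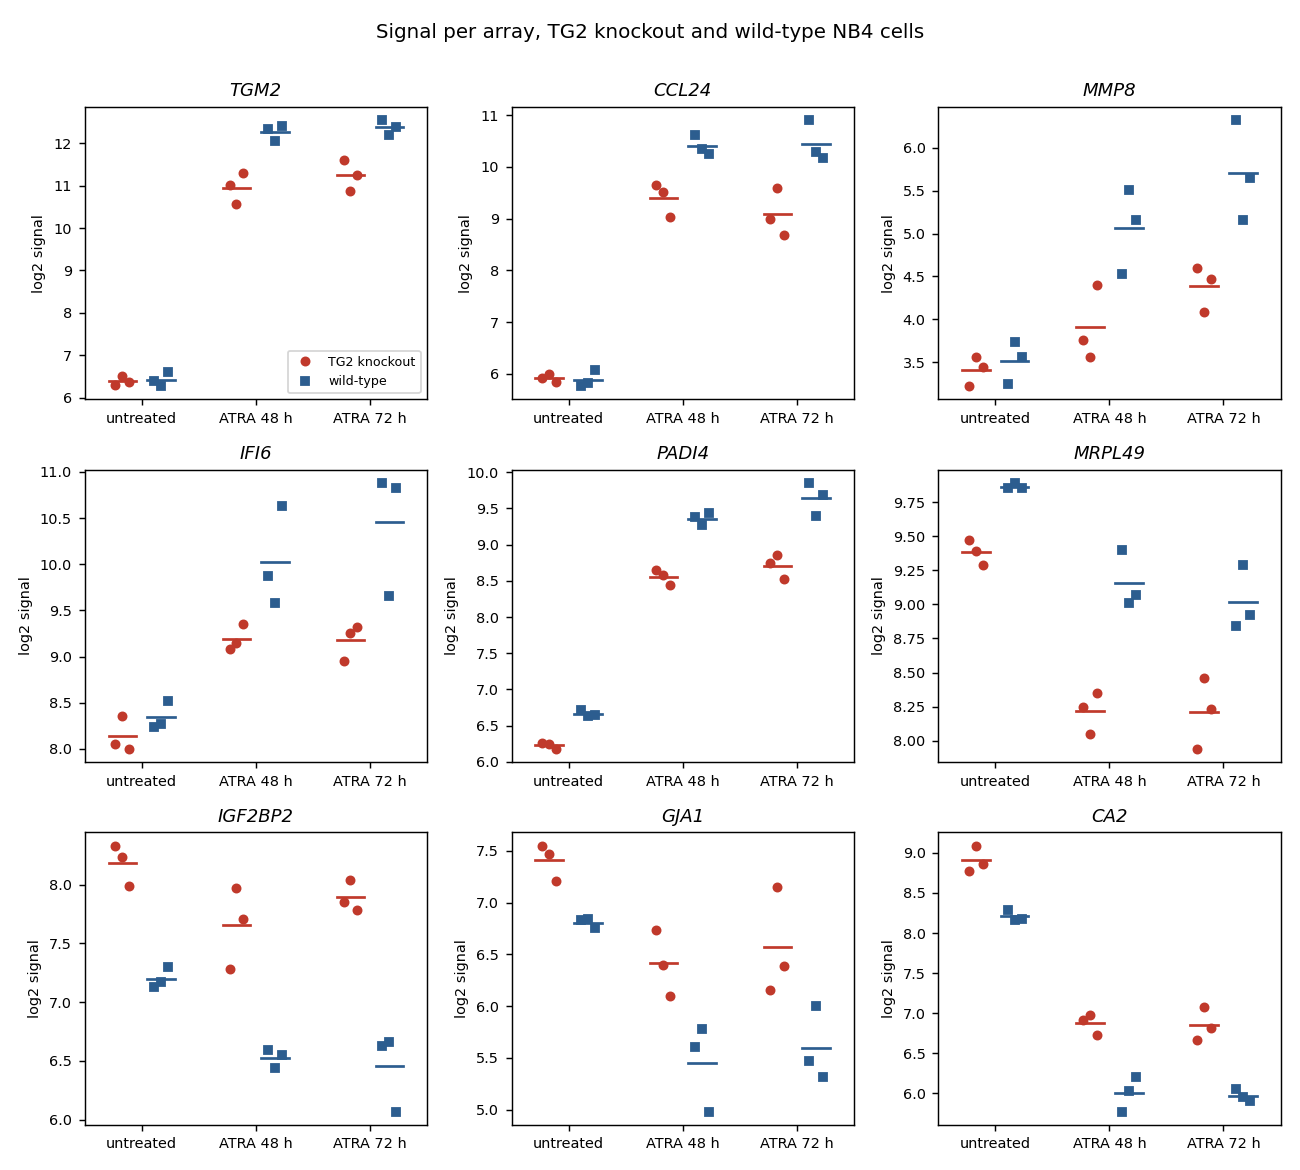
Log2 signal of 9 genes on each array (y axis, its own scale per panel) for untreated cells and for 48 and 72 h of ATRA (x axis), with TG2 knockout as red circles left of wild-type as blue squares and a bar at each group's mean. TGM2 and CCL24 overlap in untreated cells and are apart at 48 and 72 h, whereas IGF2BP2, GJA1, CA2, PADI4 and MRPL49 are already apart in untreated cells.

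The arrays of 72 h are separate samples from those of 48 h, so they show which differences recurred. The arrays did not overlap in the same direction at both times for 218 of 18417 genes (1.18%), of which 77 were higher and 141 lower in knockout cells. They are 16.6% of the 1315 genes apart at 48 h and 9.47% of the 2301 apart at 72 h, where 6.9% of all genes were apart and higher and 5.59% apart and lower. A further 46 genes (0.25%) were apart in opposite directions. At 72 h, too, no probe set passed an adjusted p of 0.05 (0%). Across all genes the differences at the 2 times had a Pearson r of 0.258, and genes are not independent replicates. No probe set was called for the difference at 48 h minus that at 72 h (0%), and 938 (2.82%) had an unadjusted p under 0.05.

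The recurrent genes with the largest smaller difference were MMP8, TGM2, IGF2BP2, CCL24, GJA1, CA2, IFI6 and MRPL49. At 72 h TGM2 differed by −1.13 and knockout signal was 45.7% of wild-type (adjusted p = 0.257 in limma). MMP8 differed by −1.32, CCL24 by −1.36 (adjusted p = 0.257 in limma) and IFI6 by −1.28 at that time. IGF2BP2 differed by 1.44 (adjusted p = 0.0869 in limma), GJA1 by 0.97 and CA2 by 0.88.

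These genes differed in their untreated values. In untreated cells TGM2, MMP8 and CCL24 differed by −0.04, −0.11 and 0.03, all near 0, and IFI6 by −0.21 with overlapping arrays (adjusted p = 0.439 in limma). IGF2BP2 already differed by 0.98, with 8.33, 8.23 and 7.99 in untreated knockout cells and 7.13, 7.17 and 7.30 in untreated wild-type cells (adjusted p = 0.00571 in limma over the 6 untreated arrays). CA2 differed by 0.70, GJA1 by 0.60 and MRPL49, a protein of the large subunit of the mitochondrial ribosome, by −0.48 before ATRA, each called there (adjusted p = 0.0125, 0.0271 and 0.00943 in limma), as were 284 of all probe sets (0.853%). Of the 218 recurrent genes, 61 (28%) were also apart in the same direction in untreated cells, as were 166 (12.6%) of the 1315 genes apart at 48 h. Untreated arrays did not overlap for 19.6% of all genes, counting both directions. The 28% and 12.6% count only the same direction, so 19.6% is not a like background for them. Only 2 probe sets, neither with a gene, were called for the difference at 48 h minus that in untreated cells (0.00601%), and 1202 (3.61%) had an unadjusted p under 0.05. For TGM2 that difference of differences was −1.28 ± 0.27 (adjusted p = 0.909 in limma), and for IGF2BP2 it was 0.14 ± 0.25.

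MRPL49 was one of the most evenly separated genes at 48 h. It had 8.25, 8.05 and 8.35 in knockout cells, against 9.40, 9.01 and 9.07 in wild-type cells, with a difference of −0.94 ± 0.18 (adjusted p = 0.76 in limma). Other genes were apart before ATRA but overlapped at 48 h. CCL2, a monocyte attractant, differed by −0.98 untreated and by −0.23 at 48 h, with 10.56, 10.73 and 10.69 in knockout cells, against 10.38, 10.83 and 11.46 in wild-type cells. THBS1, thrombospondin 1, differed by −1.02 untreated and by −1.16 at 48 h, where its arrays spread over 1.79 in knockout and 2.46 in wild-type cells, with 6.66, 6.31 and 8.10 in knockout cells, against 7.44, 7.33 and 9.79 in wild-type cells.

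**Figure D2:**
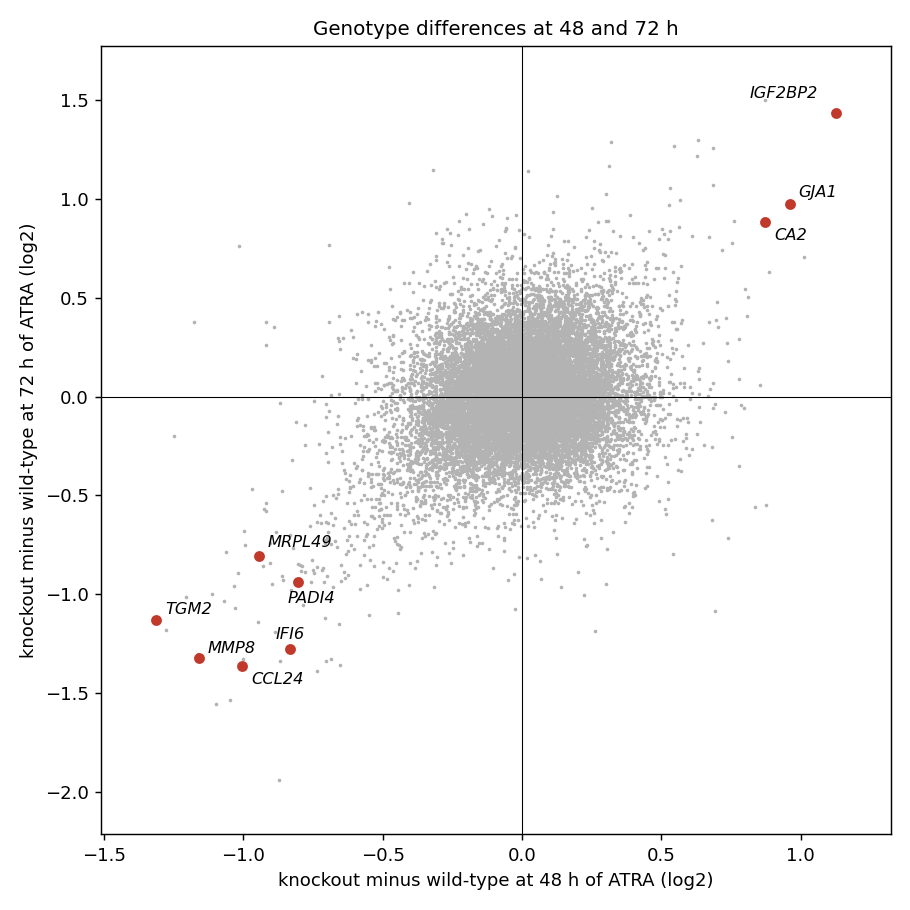
Genotype difference (knockout minus wild-type, log2) of each of 18417 genes at 48 h of ATRA (x axis) and at 72 h (y axis), grey points, with 9 named genes in red. TGM2 (−1.31 and −1.13), MMP8, CCL24, IFI6, PADI4 and MRPL49 lie low at both times and IGF2BP2 (1.13 and 1.44), GJA1 and CA2 high at both, while the cloud of all genes is centred near 0.

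Within the transglutaminase family, TGM2 was the only gene of 9 measured whose arrays did not overlap at 48 h. TGM5, best known in skin, differed by −0.41 ± 0.21, with 7.14, 6.77 and 6.68 in knockout cells, against 7.52, 7.22 and 7.09 in wild-type cells. Its groups overlapped by 0.05, and at 72 h they did not overlap, with a difference of −0.48. The other 7 lay between −0.08 and 0.21. They were TGM1 and TGM3 of the epidermis at 0.12 and −0.08, TGM4 of the prostate at 0.11, TGM6 at 0.01 and TGM7 at 0.06. F13A1, the A chain of coagulation factor XIII, differed by 0.02 and EPB42, the inactive erythrocyte member, by 0.21. TGM2 was also the only member with an unadjusted p under 0.05.

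Peptidylarginine deiminases turn arginine into citrulline, and PADI4 acts on histones when neutrophils release chromatin traps. PADI4 had 8.65, 8.58 and 8.44 in knockout cells, against 9.38, 9.27 and 9.43 in wild-type cells. The arrays of each genotype lay within 0.21 of each other and the groups 0.62 apart, with a difference of −0.80 ± 0.15 (adjusted p = 0.659 in limma), or 57.3% of the wild-type signal. PADI4 differed by −0.94 at 72 h (adjusted p = 0.156 in limma) and by −0.43 untreated (adjusted p = 0.0252 in limma), so part of this difference was present before ATRA. The other 4 members overlapped between genotypes. PADI2, which many tissues express, had 9.73, 9.94 and 10.64 in knockout cells, against 10.28, 10.14 and 10.94 in wild-type cells, and PADI1, PADI3 and PADI6 differed by 0.03, 0.16 and 0.04.

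PADI4 is shown with the 250 bases before its start site, because its mean read higher under ATRA in both lines (8.56 in knockout and 9.36 in wild-type cells at 48 h, 6.23 and 6.66 untreated) and the lines were apart at all 3 times. The sequence is from RefSeq, GRCh38.p14, chr1:17307947-17308196, plus strand, and capitals mark the matches described next.
PADI4: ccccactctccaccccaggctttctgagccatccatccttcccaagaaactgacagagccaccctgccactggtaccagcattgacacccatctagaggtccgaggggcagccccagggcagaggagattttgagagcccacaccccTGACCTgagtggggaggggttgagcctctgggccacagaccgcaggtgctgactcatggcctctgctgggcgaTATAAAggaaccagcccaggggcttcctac
The capitals at −103 from the start are the reverse complement of AGGTCA, the half-site that retinoic acid receptors bind, and those at −30 are TATAAA, the TATA box. AGGTCA occurs on either strand in 12.1% and TATAAA in 10.7% of 35116 promoters of this length. A match is a description of letters and not a site of binding.

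The 22 measured retinoid targets had a median difference of −0.17, with 16 below 0 and 6 above. Knockout arrays lay all below for 2 of them and all above for 1, that is 9.09% and 4.55% against 3.3% and 3.84% of all genes. The 2 largest differences overlapped between genotypes. TRIM22, an interferon- and retinoid-responsive antiviral protein, differed by −0.80 ± 0.46, and ICAM1, an adhesion ligand of leukocyte integrins, by −0.76 ± 0.53 with 9.69, 10.26 and 11.72 in knockout cells, against 10.55, 11.12 and 12.28 in wild-type cells. Named after their values were seen, the 3 that did not overlap were TNFAIP2 (−0.64), the retinoic acid hydroxylase CYP26A1 (−0.33) and the nuclear receptor corepressor NRIP1 (0.33). TNFAIP2 was apart in untreated cells too, with a difference of −0.26. Without wild-type replicate 3 the list's median was −0.08, with 12 below 0. AGGTCA was found in at least 1 promoter of 4 of the 20 list genes with a RefSeq promoter, which are RARA, RARB, DHRS3 and STRA6, beside 14.6% of 27305 genes counted in the same way.

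Granule and oxidase genes of neutrophils had medians near 0, with members on both sides in the granule lists. Of 12 genes in the azurophil granule list, 8 read above 0 and 4 below, with a median of 0.01. SERPINB1, in that list as an inhibitor of granule proteases, differed by −0.56 ± 0.32. BPI, which binds bacterial endotoxin, differed by −0.48 ± 0.38, and both had overlapping arrays. Of 16 specific and gelatinase granule genes 10 read below 0, with a median of −0.05, and MMP8 was the only one apart and lower. Apart and higher, named after their values were seen, were the azurophil PRSS57 (0.36 ± 0.19) and TCN1 of the specific granules (0.32 ± 0.27), 1 gene of each list. The haptoglobin gene HP differed by −0.36 ± 0.49. All 6 NADPH oxidase genes read below 0, with a median of −0.08, and none was apart.

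CYBB, the catalytic subunit of the oxidase, had 11.46, 10.61 and 12.13 in knockout cells, against 11.92, 11.65 and 12.34 in wild-type cells, and the difference was −0.57 ± 0.33. NCF4, the p40phox regulator, differed by −0.52 ± 0.23 with an overlap of 0.01 between its nearest arrays. CYBA, RAC2, RAP1A and RAC1 differed by −0.09, −0.01, −0.06 and −0.0033. Those 4 changed sign under at least 1 alternative, so only CYBB and NCF4 kept theirs in every alternative, and without wild-type replicate 3 only 3 of 6 read below 0.

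Chemoattractant receptors guide neutrophils to bacterial peptides, complement fragments and chemokines. The 11 measured had a median of −0.59, with 9 below 0. Knockout arrays lay all below for 4 (36.4% of the list against 3.3% of all genes) and all above for none. Besides CX3CR1 these were, named after their values were seen, CXCR2 (−0.70 ± 0.16), the receptor of CXCL8, CCR1 (−0.59 ± 0.24) and the formyl peptide receptor FPR1 (−0.57 ± 0.31). FPR2, a second formyl peptide receptor, had 4.71, 4.60 and 4.64 in knockout cells, against 4.68, 5.23 and 6.19 in wild-type cells. It overlapped at 48 h through wild-type replicate 1, and its arrays did not overlap at 72 h. Without wild-type replicate 3 the list's median was −0.15 with 9 still below 0. At 72 h the median was −0.37, and untreated it was −0.04.

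Fc and complement receptors bind antibody- and complement-coated particles. All 12 measured read below 0, with a median of −0.45 at 48 h, −0.62 at 72 h and −0.0033 untreated. The arrays were apart for 1 of the 12, the signalling adaptor TYROBP (−0.61 ± 0.20), named after its value was seen. ITGAX, the CD11c integrin chain, had 7.58, 7.39 and 8.05 in knockout cells, against 8.51, 8.0 and 8.65 in wild-type cells, and its groups overlapped by 0.05. CR1, complement receptor 1, spread from 4.86 to 7.12 in knockout cells and from 5.83 to 7.59 in wild-type cells. Without wild-type replicate 3 the median was −0.10 with 8 of 12 below 0, so the list's direction was kept and most of its size was not.

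CC chemokines recruit monocytes, lymphocytes and eosinophils. Of 14 measured, CCL24 and CCL22 lay apart and lower (14.3% against 3.3% of all genes). Of the 14, 7 read above 0 and 7 below, and the median was −0.09, or 0.10 without wild-type replicate 3. CCL22, a ligand of CCR4, had 7.27, 7.64 and 6.85 in knockout cells, against 7.92, 7.76 and 7.67 in wild-type cells, with a difference of −0.53 ± 0.19, and −0.62 at 72 h. The inflammatory CCL3, CCL4, CCL5 and CCL20 differed by −0.32, 0.11, 0.11 and −0.23. CCL3 and CCL4 have near-identical copies in the genome, which a probe set may not separate. CCL4 had 5.48, 5.55 and 5.21 in knockout cells, against 3.72, 5.19 and 6.99 in wild-type cells, so its wild-type arrays alone covered 3.27. CCL1, CCL7, CCL8, CCL17, CCL18, CCL23 and CCL28 lay between −0.32 and 0.35.

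CXC chemokines and cytokines had wide wild-type spreads. CXCL8 had 7.24, 7.97 and 8.62 in knockout cells, against 7.12, 8.38 and 10.07 in wild-type cells, and the difference was −0.58 ± 0.59. CXCL10, an interferon-induced T cell attractant, had 4.07, 5.54 and 6.46 in knockout cells, against 4.17, 6.27 and 7.84 in wild-type cells. For both genes the sign turned without wild-type replicate 3, to 0.19 and 0.14. IL1B, interleukin 1 beta, had 5.43, 5.56 and 5.73 in knockout cells, against 5.64, 5.80 and 7.64 in wild-type cells, and IL1A differed by −0.55 ± 0.50. Of 14 CXC chemokines 1 lay apart and higher (7.14% against 3.84% of all genes), and of 18 cytokines 1 lay apart and lower (5.56% against 3.3%). The cytokine median was −0.03, and 0.045 without wild-type replicate 3. The 19 NF-kB pathway genes had a median of −0.29 and of 0.09 without wild-type replicate 3. TNFAIP3, an inhibitor of that pathway, had 6.28, 6.40 and 7.79 in knockout cells, against 6.40, 6.96 and 8.65 in wild-type cells.

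Interferon response genes encode antiviral effectors that cells make after interferon binds its receptor. Of 27 measured, 25 read below 0 in knockout cells, with a median of −0.48. Knockout arrays lay all below for 7 (25.9% of the list against 3.3% of all genes), and for none all above. IFI6, an interferon-induced membrane protein, had 9.08, 9.15 and 9.35 in knockout cells, against 9.87, 9.58 and 10.63 in wild-type cells, with a difference of −0.83 ± 0.31 (adjusted p = 0.999 in limma). Its 3 knockout arrays lay within 0.27 of each other, while the wild-type arrays spread over 1.05, with replicate 3 the highest.

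The largest differences of that list were in IFIT2, which binds viral RNA, and in OAS1, which makes an activator of RNase L. IFIT2 had 5.06, 4.98 and 6.21 in knockout cells, against 6.13, 6.0 and 7.33 in wild-type cells, and the difference was −1.07 ± 0.57. OAS1 had 7.41, 7.03 and 7.80 in knockout cells, against 7.75, 8.17 and 9.46 in wild-type cells, with a difference of −1.05 ± 0.52. Both overlapped between genotypes. At 72 h the list's median was −0.64, with 3 genes apart and lower, and untreated it was −0.02. Without wild-type replicate 3 the 48 h median was −0.24 with 22 of 27 below 0, and without replicate 3 of both genotypes it was −0.35 with 22 below 0.

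The promoter of IFI6 is shown because this gene led the list among those apart at both times. It is from RefSeq, GRCh38.p14, chr1:27672193-27672442, minus strand, 250 bases before the start site.
IFI6: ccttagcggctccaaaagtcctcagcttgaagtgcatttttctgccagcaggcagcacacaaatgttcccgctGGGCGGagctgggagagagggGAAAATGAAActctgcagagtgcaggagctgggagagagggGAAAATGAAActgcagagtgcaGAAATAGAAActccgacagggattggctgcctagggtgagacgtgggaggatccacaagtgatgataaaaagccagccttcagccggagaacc
Capitals mark 3 copies of the interferon element, here a pair of GAAA runs with any 2 bases between them, which interferon-activated factors bind, at −156, −115 and −93, and 1 GGGCGG, the GC box, at −177. The motifs do not overlap. Of 35116 promoters 3.02% held the interferon element and 42.6% held GGGCGG on either strand. Of the 22 list genes with a RefSeq promoter 15 held the element in at least 1 of their promoters, beside 3.71% of 27305 genes counted in the same way. The list was made of interferon response genes, so this share describes the list and is not a result of these arrays. Among the 15 were IFIT1, OAS3, RSAD2 and SAMD9. With IFI6, which also held the element, and IFI35 and IRF9, which did not, these make up the 7 genes apart at 48 h. The 7 were named after their values were seen.

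Lysosomal genes, whose products digest what cells take up, all leaned one way. All 22 measured read below 0, with a median of −0.29 and a range of −0.55 to −0.04, beside 49.4% of all genes below 0. Knockout arrays lay all below for 4 (18.2% against 3.3% of all genes), and for none all above. CTSH, the protease cathepsin H, had 7.71, 7.24 and 7.88 in knockout cells, against 7.92, 7.89 and 8.57 in wild-type cells, only 0.01 apart at the nearest arrays. ATP6V1B2, a subunit of the proton pump that acidifies lysosomes, had 9.86, 9.09 and 10.17 in knockout cells, against 10.35, 9.91 and 10.51 in wild-type cells, and overlapped. The other 3 apart were, named after their values were seen, ATP6V0D1 (−0.37), LIPA (−0.36) and MCOLN1 (−0.22). Knockout replicate 2 was the low array, with a list mean of 8.83 against 9.26 and 9.29 in knockout replicates 1 and 3, and 9.51, 9.26 and 9.49 in wild-type replicates. Without it the median was −0.13, with 20 of 22 below 0. At 72 h the median was −0.19 with none apart.

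**Figure D3:**
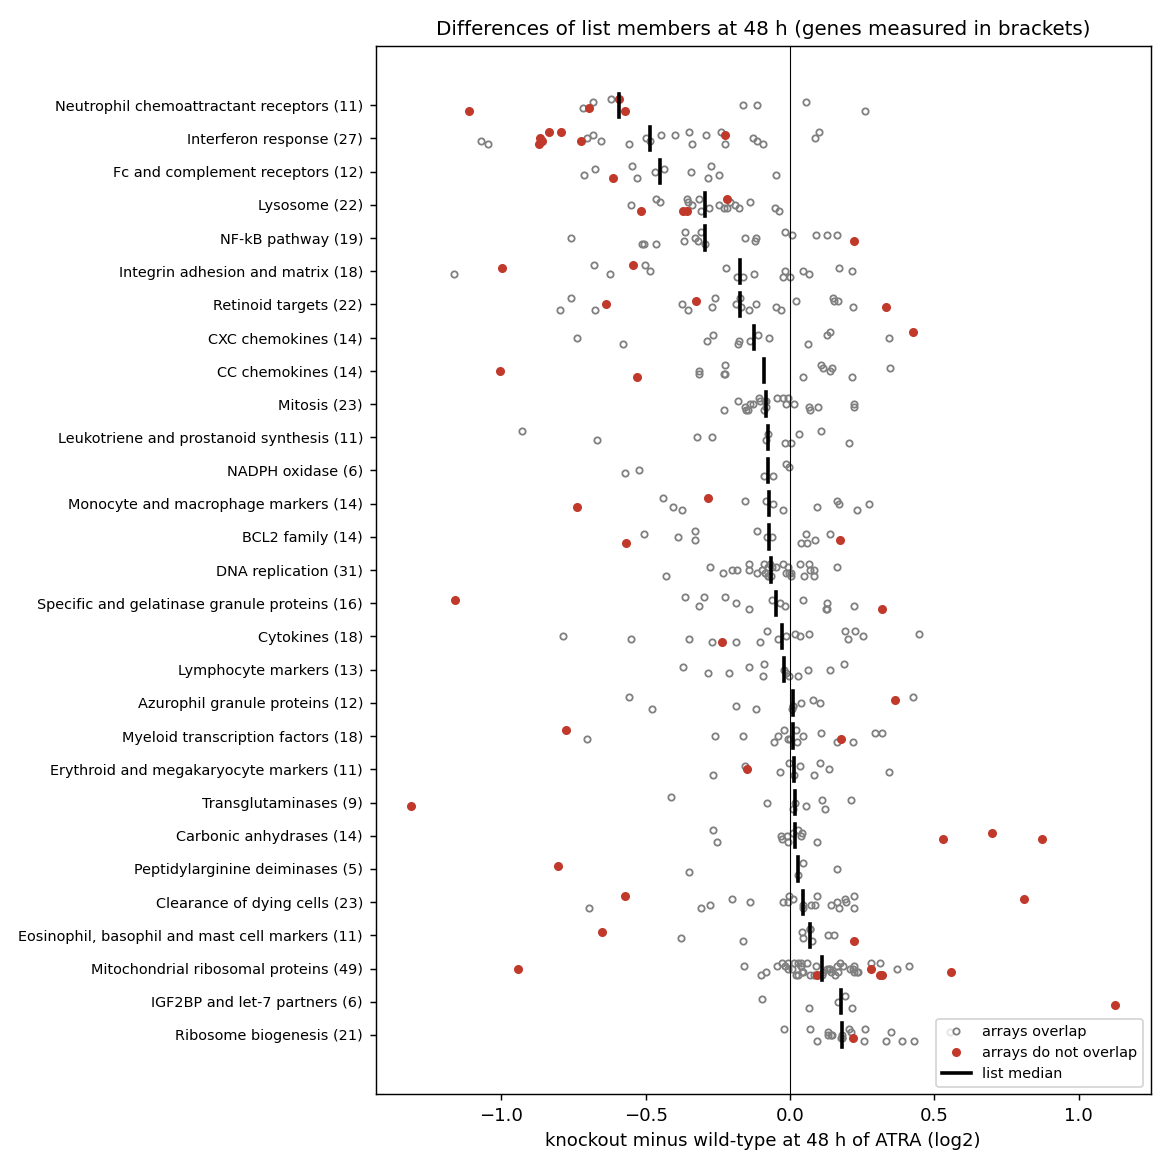
Genotype difference at 48 h (x axis, knockout minus wild-type, log2) of each measured gene in 29 lists (rows), with filled red circles for genes whose arrays do not overlap, open circles for the others and a black bar at the list median. Chemoattractant receptors (median −0.59), interferon response, Fc and complement receptors and lysosome (−0.29) lie mostly below 0, and ribosome biogenesis (0.18) mostly above.

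Genes of ribosome production read slightly higher in knockout cells. Of 21 ribosome biogenesis genes 20 were above 0, with a median of 0.18 at 48 h, 0.37 at 72 h and 0.0033 untreated. The arrays were apart for 1, PES1 (0.22), named after its value was seen. RRS1, a nucleolar assembly factor, had 8.47, 8.93 and 8.04 in knockout cells, against 8.21, 7.99 and 7.58 in wild-type cells, and NOP16 differed by 0.43 ± 0.26. The list mean was 9.58, 9.35 and 9.47 in knockout arrays, against 9.50, 9.23 and 9.01 in wild-type arrays, so wild-type replicate 1 lay among the knockout arrays. Without replicate 3 of both genotypes the median was 0.05 with 13 of 21 above 0.

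Of 49 mitochondrial ribosomal proteins 40 read above 0, with a median of 0.11. The arrays were apart and higher for 5 (10.2% against 3.84% of all genes). MRPL24 led them with 9.54, 9.81 and 9.31 in knockout cells, against 9.20, 9.12 and 8.67 in wild-type cells, and the difference was 0.56 ± 0.19. MRPL49, at −0.94, was the only one apart and lower. Most cell division genes read slightly below 0. The 23 mitosis genes had 17 below 0 and lay between −0.23 and 0.22 with none apart, PRC1 of the central spindle at −0.23 and the spindle checkpoint gene MAD2L1 at 0.22. The 31 DNA replication genes had 22 below 0 and a median of −0.07 with none apart, CCNE2, cyclin E2, at −0.43 ± 0.30 and the helicase subunit MCM5 at −0.28 ± 0.17. Without wild-type replicate 1 both medians turned above 0, to 0.05 for mitosis and 0.10 for DNA replication.

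**Figure D4:**
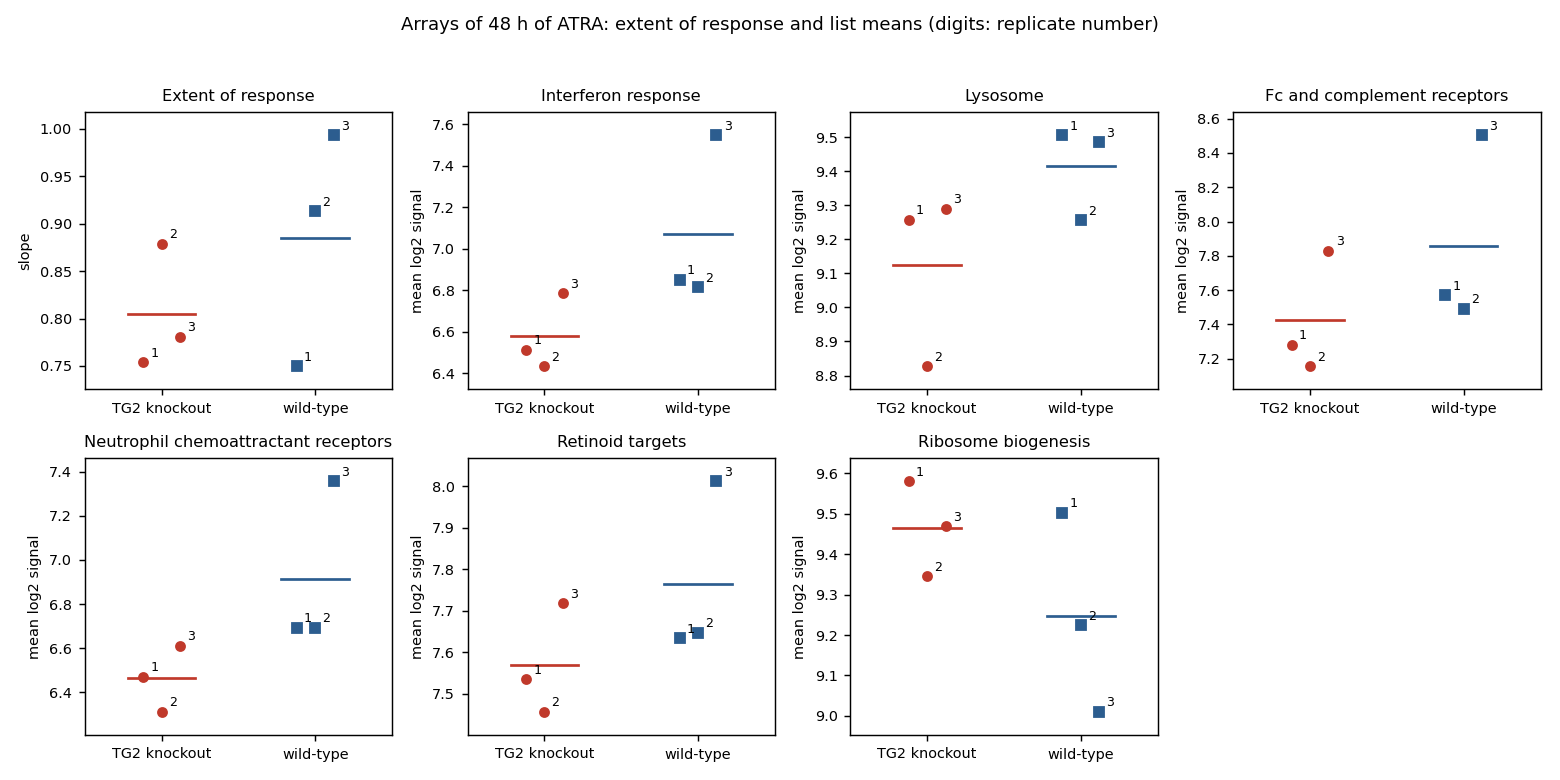
Each of the 6 arrays at 48 h (TG2 knockout, red circles, left; wild-type, blue squares, right; digits give the replicate number, bars the group mean): the slope of the response relative to wild-type at 72 h, and the mean log2 signal of 6 lists (y axes, not starting at 0). Wild-type replicate 3 stands highest in the interferon, Fc and complement, chemoattractant and retinoid lists, and wild-type replicate 1 has a slope of 0.75 beside knockout slopes of 0.754 to 0.879.

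The extent of the response and these lists were set side by side. Wild-type replicate 3 had the largest slope, 0.993, and the highest mean of the interferon list, 7.55, against 6.85 and 6.81 in wild-type replicates 1 and 2 and 6.51, 6.43 and 6.79 in knockout replicates. Wild-type replicate 1 had the smallest slope, 0.75, and an interferon mean of 6.85, next to 6.79 in knockout replicate 3. Knockout replicate 2 had the largest knockout slope, 0.879, and the lowest interferon mean, 6.43. The Fc and complement mean of wild-type replicate 1, 7.57, lay between knockout values of 7.28, 7.16 and 7.83 in replicates 1, 2 and 3. The part of the response's extent in the list differences was not tested.

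IGF2BP2 and CA2, among the highest differences, belong to families that were listed whole. Of 6 measured IGF2BP and let-7 partner genes, IGF2BP2 was the only one apart at 48 h, and the oncofetal IGF2BP1 differed by 0.21 ± 0.13. IGF2BP1 was, however, apart and higher at 72 h and untreated, by 0.25 and 0.11. Of 14 carbonic anhydrases 3 were apart and higher (21.4% against 3.84% of all genes) and none lower, with a median of 0.02. CA2 is itself among these 3, and the lists were chosen with earlier results of these data known. The share of 21.4% is therefore partly set by that choice, and 3.84% is not a like background for it. CA8, a member without enzyme activity, had 7.06, 6.66 and 6.23 in knockout cells, against 6.18, 5.95 and 5.72 in wild-type cells, and the secreted CA6, named after its value was seen, differed by 0.53.

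Among 18 integrin adhesion and matrix genes 14 read below 0, with a median of −0.17, and ITGA6 and ITGB7 (−0.54, named after its value was seen) were apart. Of 23 genes for the clearance of dying cells, in which TG2 takes part in macrophages of mice, 14 read above 0 and 9 below. ANXA1 was apart and higher, the bridging protein PROS1 (−0.57, named after its value was seen) apart and lower, and the receptor MERTK had 8.41, 7.57 and 9.23 in knockout cells, against 8.75, 8.64 and 9.91 in wild-type cells. In leukotriene and prostanoid synthesis PTGS1, cyclooxygenase 1, had 8.67, 8.43 and 9.53 in knockout cells, against 9.54, 9.43 and 10.45 in wild-type cells. The PTGS1 groups overlapped by 0.10. Against the wild-type array of the same number PTGS1 read −0.87, −1.0 and −0.92, but the numbers are not known to pair the arrays. PTGES, a prostaglandin E synthase, differed by −0.67 ± 0.52.

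Of 18 myeloid transcription factors 9 read above 0 and 8 below. IRF8, which steers progenitors to monocytes, had 6.12, 6.24 and 5.84 in knockout cells, against 6.51, 6.92 and 7.10 in wild-type cells, with a difference of −0.78 ± 0.22, and it differed by −0.24 at 72 h with overlapping arrays. ID2, an inhibitor of E proteins, differed by −0.70 ± 0.31 and −0.63 at 72 h. In the BCL2 family, which sets the threshold of cell death, BAK1, a pore-forming killer protein, had 8.80, 8.25 and 8.92 in knockout cells, against 9.51, 9.13 and 9.03 in wild-type cells. It was apart at 72 h too, at −0.44, and the protective BCL2A1 differed by −0.51 ± 0.28 with overlap.

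Markers of other cell types were counted in the same way. The arrays did not overlap for 2 of 9 monocyte and macrophage, 2 of 7 eosinophil, basophil and mast cell, 1 of 6 erythroid and megakaryocyte and 0 of 6 lymphocyte markers. Both directions are counted here, and 7.14% of all genes were apart on that count. Named after their values were seen, VSIG4, MRC1 (−0.28), CLC and ITGA2B (−0.15) were lower and IL5RA (0.22) higher. The mean of the 9 monocyte and macrophage markers ranged from 5.98 to 6.01 in knockout arrays and from 5.95 to 6.45 in wild-type arrays. In wild-type arrays CD68, which other myeloid cells carry too, stood at the 91.4th percentile of all probe sets. CD14, CSF1R, SIGLEC1 and MARCO stood at percentiles of 53.4, 60.3, 58.1 and 61.8, and VSIG4 at 49.6. The macrophage receptors CD163, MSR1 and MRC1 stood lower, at 19, 12.4 and 21.3. VSIG4, a macrophage complement receptor, had 5.36, 5.49 and 5.40 in knockout cells, against 5.65, 5.99 and 6.82 in wild-type cells, and CD86 differed by −0.44 ± 0.47. A longer list of 14 such markers had a median of −0.07, and of 0.08 without wild-type replicate 3. The 7 measured eosinophil, basophil and mast cell markers ranged from 5.55 to 5.71 in knockout and from 5.60 to 5.87 in wild-type arrays. CLC, the Charcot-Leyden crystal protein, had 4.60, 4.36 and 4.66 in knockout cells, against 4.97, 5.33 and 5.27 in wild-type cells, and PRG2 differed by −0.38 ± 0.24.

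The 6 measured erythroid and megakaryocyte markers ranged from 5.91 to 6.0 in knockout and from 5.88 to 6.0 in wild-type arrays, with PF4 at 0.34 ± 0.25 and PPBP at −0.27 ± 0.24. The 6 measured lymphocyte markers ranged from 6.40 to 6.71 in knockout and from 6.55 to 6.69 in wild-type arrays. CD4, which monocytes also carry, differed by −0.37 ± 0.15 and CD3E by −0.28 ± 0.20. The part of these markers in the differences of the immune lists was not tested.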

How the data were processed

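RNA of NB4 cells was measured on 18 whole-transcript arrays, 3 per group, and the 6 of 48 h of ATRA are compared here. The deposited table, with 1 number for each array and probe set, was taken as log2 from the values themselves (0.73 to 13.56). How the authors corrected background and normalized is not given in the sources used here, and no further normalization was applied. Array medians lay between 6.12 and 6.26. The number of arrays limits the precision.

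Of 33297 probe sets 19460 have 1 gene, 1754 several and 12083 none. The values of 974 equal those of another probe set. Where a gene has several probe sets, the brightest on average stands for it, except in ranked groups, where the ranking probe set does.

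Limma 3.58.1 in R 4.3.3 fitted 4 group means to the 12 ATRA arrays, with eBayes and trend, 8 residual degrees of freedom and Benjamini-Hochberg adjustment over all probe sets. Untreated arrays were kept out because their median SD was 0.0985 in knockout and 0.0757 in wild-type cells, against 0.215 to 0.243 in the ATRA groups, and 1 spread for all 18 arrays would be too small for 48 h. Untreated cells were fitted alone. The difference at 48 h minus untreated used 12 arrays with group weights. All tests were two-sided, and the fit was tested on simulated data.

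Members and 29 lists (472 of 519 genes measured) were chosen with earlier results of these data known, so lists are described and not tested. Named are TGM2, the 8 highest and 8 lowest differences at an unadjusted p under 0.05 whose arrays do not overlap, the 8 recurrent genes with the largest smaller difference, the 2 largest differences of each list, and all members of 4 families. Promoters came from RefSeq, GRCh38.p14. Probe sets were named through the platform annotation, and 19429 identifiers matched RefSeq.

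Alternatives were quantile normalization, median centring, brighter or single-gene probe sets, eBayes without trend or robust, the replicate block, other sets of arrays, group weights, and leaving out arrays.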

Additional observations from a re-analysis of the deposited data

Results flagged for a closer look

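The genotype difference at 48 h minus that in untreated cells was called for 2 probe sets, neither annotated to a gene. For probe set 7895037 it was −2.68 (adjusted p = 0.0458 in limma), with 4.43, 4.01 and 3.25 in knockout cells at 48 h, against 6.83, 6.47 and 6.44 in wild-type cells, while both untreated groups averaged 8.65. At 72 h it read 0.93 the other way, with overlapping arrays. For probe set 7958377 it was 2.87 (adjusted p = 0.0458 in limma), with 4.20, 3.66 and 4.18 in knockout cells at 48 h, against 2.17, 1.94 and 1.81 in wild-type cells. Its untreated means were 1.83 in knockout and 2.66 in wild-type cells. This probe set also had the smallest unadjusted p between the genotypes at 48 h, 5.06e-06 (adjusted p = 0.168 in limma).

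Among the named genes, 2 had arrays that did not overlap at either ATRA time but in opposite directions. ANKRD20A8P differed by 0.84 at 48 h and by −0.56 at 72 h, and UGT2B10 by −1.01 at 48 h and by 0.76 at 72 h. The difference between the times was tested and not called for either (adjusted p = 1 in limma). Such opposite pairs made up 0.25% of all genes.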

How the results depend on the processing

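No probe set was called at 48 h with quantile normalization, median centring, brighter or single-gene probe sets, robust eBayes, the 6 arrays of 48 h alone, group weights, or any left-out array or replicate number. Called were 1 without trend (higher), 1 with the replicate block (TGM2) and 7 with all 18 arrays in 1 fit (3 higher and 4 lower), which assumes 1 spread for groups whose median SDs differ. TGM2 kept its direction in all 19 alternatives, from −1.48 to −1.12 as single arrays were left out, with adjusted p from 0.0183 to 1 in limma. With the replicate block its difference was −1.31 (adjusted p = 0.0183) and with all 18 arrays −1.31 (adjusted p = 0.0345). Same-numbered arrays of the 2 genotypes correlated in their deviations with r of 0.196, 0.194 and 0.089, so the third number does not show pairing, and the block is an alternative only. The difference at 48 h minus 72 h was called nowhere. The 2 probe sets called for 48 h minus untreated numbered 0 with median centring, 1 with brighter probe sets, 0 with single-gene probe sets, 1 without trend, 0 with the replicate block and 0 with any single array left out.

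Of 91 named genes besides TGM2, 66 kept their sign in every alternative, and 4 (IGF2BP2, CA2, PADI4 and MRPL49) were called in any, each with all 18 arrays. The others differed little from 0 or rested on 1 array, and the cause was not tested. With quantile normalization the sign turned for TGM6 (−0.0202), F13A1 (−0.0144), PADI1 (−0.0005) and RAC2 (0.0041), and with median centring for TGM6 (−0.0133) and F13A1 (−0.0067). It turned without replicate 1 of both genotypes for TGM6 (−0.14), F13A1 (−0.04), PADI1 (−0.07), HP (0.17) and CCL4 (−0.71). Without replicate 2 of both it turned for TGM1 (−0.045), TGM3 (0.04), TGM7 (−0.015), PADI6 (−0.12), CCL1 (−0.055) and CCL4 (−0.01). Without replicate 3 of both it turned for F13A1 (−0.20), CYBA (0.03), RAC1 (0.025), RAC2 (0.10), CCL2 (0.04), CCL8 (0.10) and CD86 (0.02). As single arrays were left out, the differences ranged for CCL1 by −0.015 to 0.12, CCL17 by −0.04 to 0.27, CCL2 by −0.48 to 0.055, CCL20 by −0.65 to 0.21, CCL23 by −0.66 to 0.0083, CCL3 by −0.60 to 0.0617, CCL4 by −0.68 to 0.96, CCL5 by −0.0233 to 0.28 and CD86 by −0.77 to 0.13. They ranged for CXCL10 by −1.70 to 0.14, CXCL8 by −1.28 to 0.19, CYBA by −0.21 to 0.015, F13A1 by −0.21 to 0.22, HP by −0.82 to 0.0167, PADI1 by −0.20 to 0.20, PADI6 by −0.0833 to 0.13 and RAC1 by −0.065 to 0.05, and for RAC2 by −0.11 to 0.12, RAP1A by −0.26 to 0.12, TGM3 by −0.22 to 0.0167, TGM6 by −0.0683 to 0.0817, TGM7 by −0.0267 to 0.14 and TNFAIP3 by −0.997 to 0.14.

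Among list medians, 17 of 29 changed sign in some alternative, and of 348 values 31 moved by more than the spread between arrays. Signal over background was not given.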
